A study of Ogataea parapolymorpha DL-1 with 4 samples.

Results

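The response to sulfur limitation was compared between a met4 mutant and a wild type of Ogataea parapolymorpha DL-1, a yeast that can grow on methanol, and the part of it that depended on the strain is described here for 4495 of the 5448 genes in the table. RNA sequencing covered 4 libraries, 1 per group. The mutant had the genotype leu2 met4::LEU2, in which the marker LEU2 sits in MET4, and the wild type had the genotype leu2 [LEU2], so that both carried LEU2 in a leu2 background. Each strain was grown in YPD from an OD600 of 0.1 to 0.3 and then held for 2 h in sulfur-limited B medium or in B medium with 0.5 mM cysteine, a sulfur source. Values are the FPKM that the authors deposited, that is, fragment counts scaled by the length of the transcript and the number of mapped fragments of the library.

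Yeasts take up sulfate, reduce it to sulfide and join the sulfide to a carbon skeleton to make homocysteine, methionine, cysteine and S-adenosylmethionine. In budding yeast the bZIP factor Met4 switches these genes on when sulfur is short, helped by DNA-binding partners such as Met31 and Met32, and the ubiquitin ligase subunit Met30 holds it back when sulfur is plentiful. The comparison asks which responses to the lack of cysteine were present in the wild type and not in the mutant, and the reverse.

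The response of a strain is its log2(FPKM + 1) in B medium minus that in B medium with cysteine, and the difference of responses is the mutant's minus the wild type's, so that a negative value means a lower response in the mutant. Genes with a mean over the 4 libraries of at least 5 FPKM and a span of at least 600 bases were compared. The limit for a response was 1 on the log2 scale, a fold of 2. A response was called lost when the wild type reached the limit and the mutant did not, kept when both did in the same direction, gained when only the mutant did, and turned round when both did in opposite directions. The classes are made from the same 4 values that are described within them. With 1 library per group no test was possible, no p-value or error is given, and the words lost, kept, gained and turned round name these classes only. Adding 1 FPKM understates the fold of genes with low values. FPKM are relative to the rest of a library, so a change in the amount of RNA per cell cannot be told apart from a change in the share of 1 gene.

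The median FPKM of the genes compared was 57.0 in the mutant in both media, against 67.0 for the wild type in B medium and 58.5 for the wild type given cysteine, and the depth of the libraries is unknown. Genes of under 400 bases held 24.5% and 19.4% of all FPKM in the mutant without and with cysteine, against 56.2% and 48.2% in the wild type without and with cysteine. The strains thus differed in how much of their signal fell on short genes, which the span limit leaves out of the comparison. No gene is named MET4. The gene taken as its counterpart, annotated as a transcription factor and named zip1 (HPODL_03459) after the Met4-like factor of fission yeast, lies on chromosome IV, 763543 to 764535. It was listed at 0 in both mutant libraries and had 485 and 202 FPKM in the wild type without and with cysteine. Its neighbour HPODL_05198 (chromosome IV, 764635 to 764962), an uncharacterized protein, was at 0 there too. No difference between the strains can therefore be assigned to zip1 alone, and zip1 itself falls in the lost class only because it is listed at 0.

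More genes differed between the media in the wild type than in the mutant, as deposited and under each of 4 other scalings, and in the wild type most of them were higher in B medium except under TPM scaling, described below. The mutant had 569 genes that were 2-fold or more higher in B medium than with cysteine, 12.7% of those compared, and 513 that were 2-fold or more lower, 11.4%. The wild type had 1003 such higher genes, 22.3%, and 572 lower ones, 12.7%. The median response was 0.06 in the mutant and 0.18 in the wild type, and the median difference of responses was -0.16, with quartiles of -0.83 and 0.47. The difference of responses was at least 1 in 520 genes, 11.6%, and at most -1 in 928 genes, 20.6%. This balance depended on how the libraries were scaled. With each library scaled to the same sum over all genes (TPM), 491 genes were 2-fold or more higher and 568 lower in the mutant, against 575 higher and 945 lower in the wild type. For the difference of responses TPM scaling gave 863 genes of at least 1 and 527 of at most -1, scaling to the sum over genes of at least 600 bases gave 677 and 730, and median-of-ratios scaling gave 650 and 762. These scalings moved the median difference of responses by 0.37, 0.17 and 0.15, in the same order, and upper-quartile scaling moved it by 0.11. Values below are as deposited and are to be read against the median of all genes.

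Sorted by class, 974 genes lost their response, 21.7% of those compared, 553 kept it, 12.3%, 481 gained one, 10.7%, and 48 turned round, 1.07%. The other 2439 genes, 54.3%, stayed under the limit in both strains. Among the lost responses 713 were higher in the wild type in B medium, 15.9%, and 261 were lower, 5.81%. TPM scaling gave 402 and 514 for the same counts, so the predominance of lost higher responses is not a property of every scaling. Kept responses were higher in 258 genes, 5.74%, and lower in 295 genes, 6.56%. Gained responses were higher in 295 genes, 6.56%, and lower in 186 genes, 4.14%. Responses that turned round were higher in the wild type in 32 genes, 0.712%, and lower in the wild type in 16 genes, 0.356%.

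**Figure D1:**
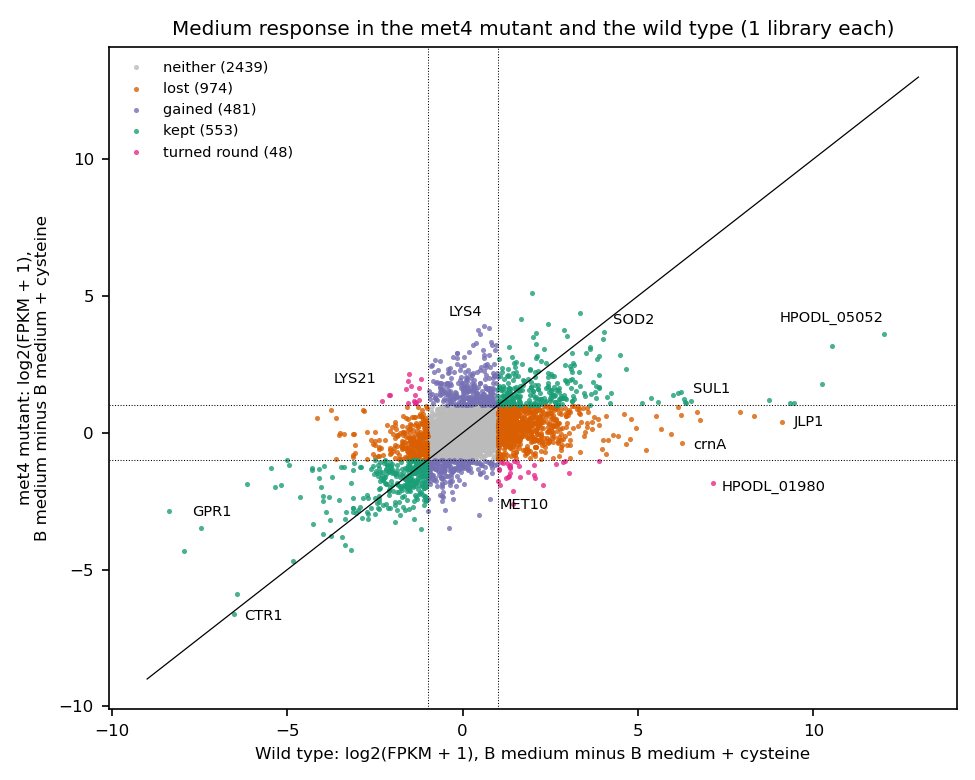
Response of each of 4495 genes in the met4 mutant (vertical axis) and in the wild type (horizontal axis), as log2(FPKM + 1) in B medium minus B medium with cysteine, 1 point per gene and 1 library per group, with dotted lines at the limit of 1 and a solid line where the strains are equal. The 974 lost responses lie in a flat band to the left and right of the centre, the 481 gained ones above and below it, and the far right holds genes such as HPODL_05052 with 12.01 in the wild type and 3.61 in the mutant.

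A class can be entered by a small step across the limit, so the size of the difference of responses was counted within each class. It was at least 1 in size in 525 of the 713 lost higher responses and in 147 of the 261 lost lower ones. Among kept responses it was at least 1 in size in 99 of the 258 higher and 60 of the 295 lower ones. In 83 of these 99 kept higher responses the mutant's was the smaller. A kept response can thus still be cut deeply, as in the sulfonate dioxygenases described below. For gained responses the counts were 185 of 295 higher and 97 of 186 lower ones. In 287 genes of the class under the limit in both strains the responses also differed by 1 or more.

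**Figure D2:**
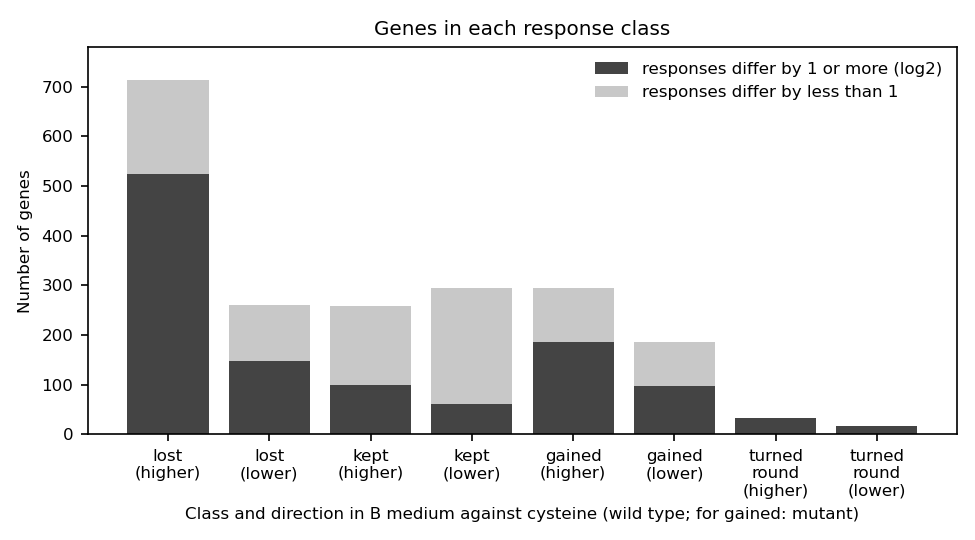
Number of genes (vertical axis) in each response class and direction (horizontal axis), split by whether the mutant's and the wild type's responses differed by 1 or more on the log2 scale. Of the 713 lost higher responses 525 differed by 1 or more, against 60 of the 295 kept lower ones.

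Among genes that were higher in the wild type by 1 to 2 on the log2 scale, 77.9% of 639 were lost in the mutant, and this share was 64.3% of 249 genes for 2 to 3, 47.8% of 69 genes for 3 to 4 and 47.8% of 46 genes for 4 or more. Among genes that were lower by the same steps, the lost share was 53.6% of 414, 25.7% of 101, 32.4% of 37 and 5.0% of 20 genes. The smallest wild-type responses had the highest lost share in both directions, and the lower responses showed no even order above that. Large lower responses were therefore mostly kept, whereas the large higher ones were divided between kept and lost. The responses of the strains share no library, but the lost class rests on a fixed limit of 1. A wild-type response just over the limit is lost after a small shortfall in the mutant, and one of 4 or more only after a large one. The higher lost share of small responses is thus set in part by the definition of the class. Across the 4495 genes the responses had Pearson's r = 0.49 and Spearman's rho = 0.45, given as a description because genes are not independent and share their libraries.

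For lost responses that differed by 1 or more, the mutant's mean level was placed on the wild type's range, with 0 at the wild-type level with cysteine and 1 at the wild-type level in B medium. Of 525 such higher responses 155 lay under 0, 159 between 0 and 0.25, 159 between 0.25 and 0.75, 30 above 0.75 and up to 1, and 22 above 1. Their median position was 0.16. Of 147 lower responses 42 lay under 0, 38 between 0 and 0.25, 58 between 0.25 and 0.75, 4 above 0.75 and up to 1, and 5 above 1, with a median of 0.21. The position is a mean over both mutant media and does not give the level in each. By the limit of 2-fold the strains differed more often in B medium than with cysteine. Of the 928 genes with a difference of responses of at most -1, 547 differed by 2-fold or more between the strains in B medium alone, 107 with cysteine alone, 93 in both media and 181 in neither. Of the 520 genes with at least 1, these counts were 296, 29, 43 and 152. For comparison, of all genes compared 494 were at least 2-fold higher in the mutant in B medium, 11%, and 910 at least 2-fold lower, 20.2%, while with cysteine 313 were higher, 6.96%, and 151 lower, 3.36%. These counts come from the same 4 libraries as the responses.

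**Figure D3:**
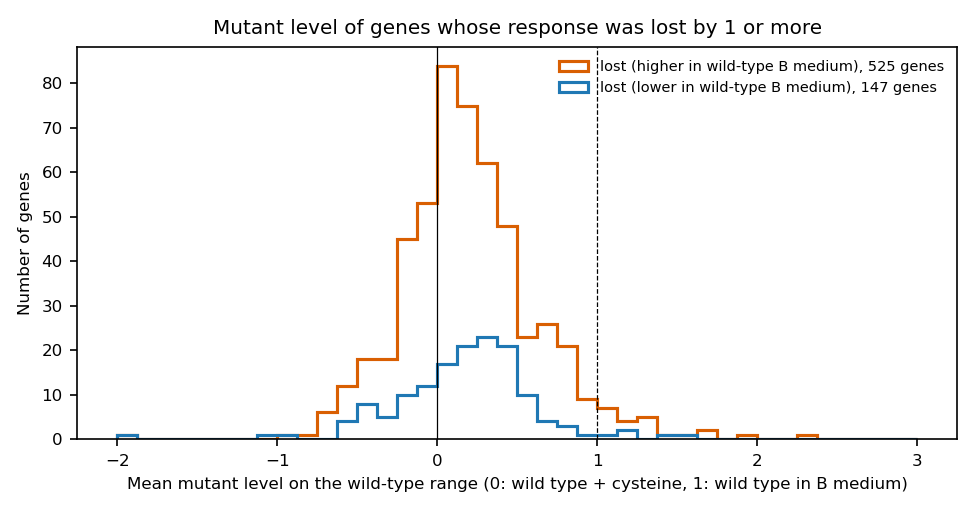
Number of genes (vertical axis) by the mean mutant level on the wild-type range (horizontal axis), for genes whose response was lost by 1 or more, with 0 at the wild-type level with cysteine and 1 at that in B medium. The 525 higher and the 147 lower responses both peak between 0 and 0.5, with medians of 0.16 and 0.21, and values beyond the ends of the axis are drawn in its outermost bins.

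In sulfate uptake and assimilation the response of most genes was lower in the mutant. Of 10 genes compared, 6 had a difference of responses of at most -1 and 0 of at least 1, against 20.6% and 11.6% of all genes compared, and the median was -2.08 against -0.16 over all genes. The counts of each list below are to be read against these shares. SUL1, the sulfate permease, had 27.1 FPKM in the mutant in B medium and 11.8 with cysteine, against 1017 in the wild type in B medium and 11.6 with cysteine. MET3, the ATP sulfurylase that starts the pathway, had 37.4 FPKM in the mutant in B medium and 16.8 with cysteine, against 738 in the wild type in B medium and 14.5 with cysteine. Both genes had similar levels in the strains with cysteine, and in the mutant they were higher in B medium by just over the limit, with differences of responses of -5.20 for SUL1 and -4.47 for MET3. MET14, the kinase that acts on the product of Met3, had 156 FPKM in the mutant in B medium and 42.6 with cysteine, against 548 in the wild type in B medium and 41.1 with cysteine. Its response was kept and smaller in the mutant, at 1.85 against 3.70 in the wild type.

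The sulfite reductase genes went further. MET5, a subunit of sulfite reductase, had 27.0 FPKM in the mutant in B medium and 44.8 with cysteine, against 218 in the wild type in B medium and 42.3 with cysteine, and its response was lost. MET10, the other subunit, had 23.2 FPKM in the mutant in B medium and 127 with cysteine, against 166 in the wild type in B medium and 97.2 with cysteine. The wild type held MET10 under the limit, while the mutant had less of it in B medium than with cysteine, a response of -2.41 that counts as a gained lower one. MET1, which makes part of the siroheme cofactor of sulfite reductase, followed the same pattern with responses of -1.47 in the mutant and 0.84 in the wild type. The mutant thus had its lowest MET10 and MET1 levels in the medium in which the wild type had its highest. MET8, the enzyme that completes siroheme, went the other way with responses of 1.46 in the mutant and 0.80 in the wild type, a gained higher response. MET16, the reductase that comes before sulfite reductase, had 159 and 128 FPKM in the mutant without and with cysteine, against 117 and 91.4 FPKM in the wild type without and with cysteine, and stayed under the limit in both strains. HAL21, a phosphatase of the nucleotide left over from that step, also stayed under it with responses of 0.21 in the mutant and 0.72 in the wild type. The putative sulfate transporter LPZ3C had responses of -1.13 in the mutant and -0.96 in the wild type and counted as a gained lower response although the strains differed by only -0.17.

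Synthesis of the sulfur amino acids was divided. Of 14 genes compared, 6 had a difference of at most -1 and 2 of at least 1, with a median of -0.39 that came to -0.01 under TPM scaling. The gene sam1, for S-adenosylmethionine synthetase, had 218 FPKM in the mutant in B medium and 264 with cysteine, against 3086 in the wild type in B medium and 193 with cysteine. This response of 3.99 in the wild type was lost in the mutant, which had about the wild type's cysteine level in both media. SAH1, which splits S-adenosylhomocysteine, was lost with responses of 0.18 in the mutant and 1.97 in the wild type. MET13, a methylenetetrahydrofolate reductase, was lost with responses of -0.34 in the mutant and 1.95 in the wild type. MET6, the methionine synthase, kept a smaller response, with 1.15 in the mutant and 3.11 in the wild type. These 4 genes, which act in the methyl cycle around S-adenosylmethionine, thus had a lower response in the mutant. MET12, the other methylenetetrahydrofolate reductase, had responses of 0.70 in the mutant and 0.70 in the wild type.

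The genes that build the carbon skeletons differed among themselves. The gene cys2, a probable serine O-acetyltransferase, turned round, with 25.3 FPKM in the mutant in B medium and 70.4 with cysteine, against 132 in the wild type in B medium and 35.7 with cysteine. MET2, the homoserine O-acetyltransferase, had 410.4 FPKM in the mutant in B medium and 117 with cysteine, against 108 in the wild type in B medium and 147 with cysteine. The cystathionine beta-lyase gene met-2 had 797 FPKM in the mutant in B medium and 269 with cysteine, against 381 in the wild type in B medium and 511 with cysteine. MET2 and met-2 gained a higher response in the mutant, while cys2 was lower in the mutant and higher in the wild type. MET7, a folylpolyglutamate synthase that serves methionine synthesis, gained a lower response, with responses of -1.22 in the mutant and -0.03 in the wild type. The cysteine synthase cysB on chromosome II (HPODL_05065) and the homocysteine methyltransferase mmuM kept lower responses, with responses of -1.12 in the mutant and -1.33 in the wild type for cysB and responses of -1.23 in the mutant and -1.09 in the wild type for mmuM. The second cysB gene (HPODL_02013), the putative cysteine synthase OAS-TL and the probable cystathionine gamma-synthase MET7_SCHPO stayed under the limit, with differences of responses of -0.64, 0.34 and 0.73.

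Of the 12 lowest differences of responses in the table, 4 were found among genes described as sulfonate dioxygenases. Sulfonate dioxygenases release sulfite from taurine and other sulfonates, which lets a cell grow without sulfate. HPODL_05052, a putative sulfonate dioxygenase named YP54_SCHPO, had 286 FPKM in the mutant in B medium and 22.5 with cysteine, against 9095 in the wild type in B medium and 1.21 with cysteine. HPODL_05061, of the same name, had 95.6 FPKM in the mutant in B medium and 26.8 with cysteine, against 1517 in the wild type in B medium and 0.254 with cysteine. Both were above 1000 FPKM in wild-type cells in B medium alone. HPODL_01978, the other gene of that name, had 149.9 FPKM in the mutant in B medium and 15.9 with cysteine, against 10802 in the wild type in B medium and 6.23 with cysteine. JLP1 (HPODL_00207), the dioxygenase named after its budding yeast counterpart, had 38.8 FPKM in the mutant in B medium and 17.8 with cysteine, against 6263 in the wild type in B medium and 8.01 with cysteine. All of them kept a higher response in the mutant, but the differences of responses came to -8.40, -8.45, -7.39 and -8.35 in the order given. In the mutant these genes were also above the wild type with cysteine, by 3.41 for HPODL_05052 and 4.47 for HPODL_05061 on the log2 scale, at wild-type values under 2 FPKM where the scale is compressed. Genes that share a name can share reads, which FPKM do not show.

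Not every gene of that description followed. JLP1 (HPODL_00875) had 13.001 FPKM in the mutant in B medium and 7.01 with cysteine, against 0.055 in the wild type in B medium and 6.43 with cysteine, a lost lower response at low levels. Of the 20 genes for scavenging and transport of sulfur compounds, 9 had a difference of at most -1 and 2 of at least 1, with a median of -0.81. OPT2 (HPODL_03723), an oligopeptide transporter, lost its response, with 21.3 FPKM in the mutant in B medium and 13.1 with cysteine, against 1009 in the wild type in B medium and 12.5 with cysteine. OPT2 (HPODL_00173) lost a lower response, with -0.73 in the mutant and -3.08 in the wild type, so that genes of 1 name stood on both sides. The remaining gene of the name (HPODL_00610) lay at the limit with 0.33 in the mutant and 1.003 in the wild type. The other lost higher responses of the list were those of the putative gamma-glutamyltransferase ywrD with a difference of -4.04, the dipeptidase DPEH2_SCHPO with -2.65, the arylsulfatase atsA with -1.99 and the cystine transporter ctns with -1.43. The putative oligopeptide transporter YGL4_YEAST gained a lower response with -0.95, and the dipeptidase DPEP2_COCPS kept one with -0.20. MUP3, CTNS_DROME, DUG1, DUG2, DUG3 and ECM38, which cover methionine and cystine transport and the breakdown of glutathione, stayed under the limit in both strains. Their differences ran between -0.67 for MUP3 and 0.68 for ECM38.

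Of the genes that regulate sulfur use, MET32 had 53.7 FPKM in the mutant in B medium and 34.3 with cysteine, against 139 in the wild type in B medium and 17.2 with cysteine, a lost higher response. MET30 had 48.1 FPKM in the mutant in B medium and 186 with cysteine, against 133 in the wild type in B medium and 153 with cysteine, a gained lower response. Both regulators were thus lower in the mutant than in the wild type in B medium and higher in it with cysteine. CDC34 (HPODL_05139), a ubiquitin-conjugating enzyme, lost a lower response with responses of 0.02 in the mutant and -1.03 in the wild type, and the second CDC34 gene (HPODL_04952) and the cullin CDC53 stayed under the limit. Over these 5 regulators the median difference was 0.05, with 2 of at most -1 and 1 of at least 1. With zip1 the median was -0.61, but its difference is no more than the wild-type response with the sign turned, and it was left out here after its values were seen.

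**Figure D4:**
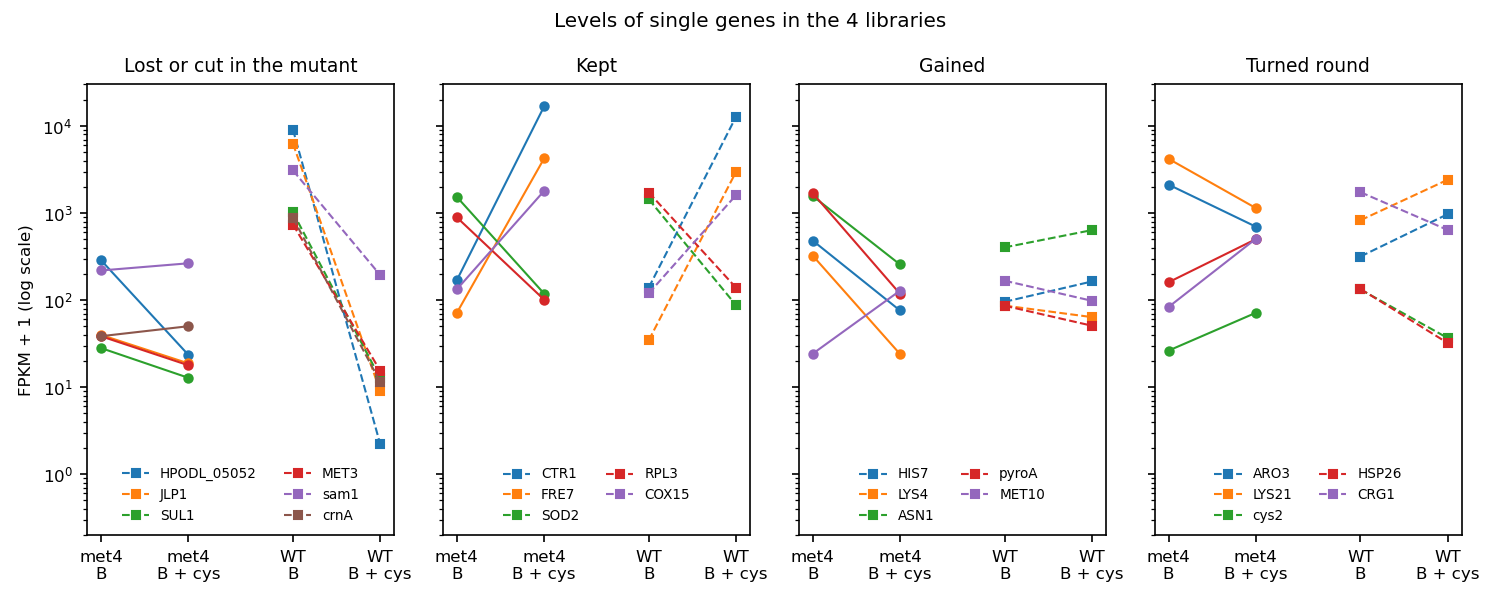
FPKM + 1 on a log axis (vertical) of single genes in the 4 libraries (horizontal axis; circles and solid lines for the met4 mutant, squares and dashed lines for the wild type, B medium left of B medium with cysteine), grouped by class. The left panel shows genes such as sam1, with 218 and 264 FPKM in the mutant and 3086 and 193 in the wild type, next to kept, gained and turned round examples.

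Some genes for the use of nitrate and other nitrogen sources were also lower in response. Of 29 genes compared, 13 had a difference of at most -1 and 3 of at least 1, against 20.6% and 11.6% of all genes compared, with a median of -0.93. TPM scaling gave 10 and 6, with a median of -0.43. The nitrate transporter crnA had 37.5 FPKM in the mutant in B medium and 49.1 with cysteine, against 879 in the wild type in B medium and 10.4 with cysteine. The nitrite reductase gene niiA had 17.4 FPKM in the mutant in B medium and 6.75 with cysteine, against 212 in the wild type in B medium and 1.69 with cysteine. The nitrate reductase YNR1 had 7.78 FPKM in the mutant in B medium and 4.81 with cysteine, against 109 in the wild type in B medium and 1.38 with cysteine. All 3 genes were more than 5 on the log2 scale higher in B medium in the wild type, and the mutant stayed between -0.38 and 1.25, with differences of -6.65, -5.06 and -4.93. MEP2, an ammonium transporter, kept a higher response with responses of 1.09 in the mutant and 4.19 in the wild type.

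Amino acid permeases were divided, with 15 of 36 at a difference of at most -1 and 7 at least 1, against 20.6% and 11.6% of all genes compared, and a median of -0.71. TPM scaling gave 11 and 6, with a median of -0.36. DIP5 (HPODL_00008), a dicarboxylic amino acid permease, had 10.6 and 4.53 FPKM in the mutant without and with cysteine, against 179 and 1.18 FPKM in the wild type without and with cysteine. GAP1 (HPODL_01635), a general amino acid permease, had 296 and 309 FPKM in the mutant without and with cysteine, against 44.4 and 389 FPKM in the wild type without and with cysteine. The wild type had its lowest GAP1 level in B medium and its lowest DIP5 level with cysteine, and the mutant values of both genes lay between those of the wild type. Other genes named DIP5 had differences of -4.70 (HPODL_03243) and -3.32 (HPODL_04534). They were named for the size of their differences, so their likeness is set in part by that choice. A further 2 GAP1 genes, picked after their values were seen, had -1.93 (HPODL_01636) and 1.12 (HPODL_00044).

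The clearest group among the gained responses was amino acid synthesis outside the sulfur lists. In the lists of lysine, branched-chain and other amino acid synthesis, 5 of 8, 7 of 9 and 25 of 47 genes had a difference of responses of at least 1, against 11.6% of all genes compared. Their median differences were 1.81, 1.84 and 1.56. The median responses were 1.67, 1.54 and 1.20 in the mutant and -0.48, 0.10 and -0.11 in the wild type, in the same order. Under TPM scaling the medians of the differences came to 2.19, 2.23 and 1.95. HIS7, a histidine synthesis enzyme, had 482 FPKM in the mutant in B medium and 75.03 with cysteine, against 94.6 in the wild type in B medium and 163 with cysteine. ASN1, the asparagine synthetase, had 1569 FPKM in the mutant in B medium and 256 with cysteine, against 402 in the wild type in B medium and 636 with cysteine. LYS4, the homoaconitase of lysine synthesis, had 324 FPKM in the mutant in B medium and 23.1 with cysteine, against 85.5 in the wild type in B medium and 62.8 with cysteine. Each of these genes was highest in the mutant in B medium and lowest in the mutant with cysteine, and the wild type lay between. For HIS7 and ASN1 the wild type was lower in B medium than with cysteine, by less than the limit.

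Responses of 31 of these 64 genes were gained higher ones, against 6.56% of all genes compared, and 4 turned round, against 1.07%. TPM scaling moved these counts to 21 gained higher and 15 turned round. LYS21 (HPODL_02806), a homocitrate synthase at the start of lysine synthesis, had 4203 FPKM in the mutant in B medium and 1143 with cysteine, against 826 in the wild type in B medium and 2413 with cysteine. ARO3 (HPODL_00199), at the start of aromatic amino acid synthesis, had 2123 FPKM in the mutant in B medium and 698 with cysteine, against 316 in the wild type in B medium and 969.9 with cysteine. HOM3 and ARG3, for aspartokinase and ornithine carbamoyltransferase, were the remaining 2, singled out after their values were seen, with differences of 2.43 for HOM3 and 2.42 for ARG3. In these 4 genes the mutant was higher in B medium and the wild type lower. THR4, the threonine synthase, gained a higher response with a difference of 3.05. Among branched-chain enzymes ILV3 gained a higher response with responses of 2.93 in the mutant and -0.15 in the wild type, and BAT1 and ILV1 lost lower ones with differences of 2.22 and 2.05. The lysine gene LYS1 had a difference of 2.05. LEU4 (HPODL_02231), the isopropylmalate synthase, gained a higher response with responses of 3.03 in the mutant and 0.91 in the wild type.

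Not every amino acid gene took part. Of the 47 other amino acid genes 9 had a difference of at most -1, the lowest being ARO9, an aromatic aminotransferase picked after its values were seen, with 81.0 FPKM in the mutant in B medium and 102 with cysteine, against 519 in the wild type in B medium and 85.8 with cysteine. GCN4, the activator of amino acid synthesis genes in budding yeast and also chosen after its values were seen, was among the lost lower responses. It had 9881 FPKM in the mutant in B medium and 6473 with cysteine, against 3204 in the wild type in B medium and 10483 with cysteine. The wild type thus had less GCN4 RNA in B medium than with cysteine and the mutant did not. GCN4 is known to be controlled mainly at translation in budding yeast, which RNA levels do not show.

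Among aminoacyl-tRNA synthetases, which load amino acids onto tRNA, the cytosolic enzymes accounted for the largest positive differences. DED81 for asparagine had 1299 FPKM in the mutant in B medium and 72.3 with cysteine, against 504 in the wild type in B medium and 157 with cysteine. CDC60 for leucine, MES1 for methionine and DPS1 for aspartate gained higher responses with differences of 2.18, 2.00 and 1.96. Of the 34 genes compared, 8 had a difference of at least 1 and 2 of at most -1, against 11.6% and 20.6% of all genes compared. The median difference was 0.09, against -0.16 over all genes. TPM scaling gave 10 and 0, with a median of 0.44 against 0.21 over all genes. Lower responses were kept in 8 members, against 6.56% of all genes compared. Ribosome biogenesis genes stayed mostly under the limit, 79 of 96, against 54.3% of all genes compared, with a median difference of 0.26. RRP15, BMS1 and RPA135, which act in ribosomal RNA synthesis and processing, gained higher responses with differences of 2.36, 2.14 and 1.72, and UTP6 gained a lower one with -1.17.

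Proteasome genes formed a group of small and even differences. Of 39 compared, 16 had a difference of at least 1 and 0 of at most -1, with a median of 0.91, and TPM scaling gave 31 of at least 1. Most stayed under the limit in each strain, 32 of 39, against 54.3% of all genes compared. The median response was 0.53 in the mutant and -0.35 in the wild type. RPN4, the activator of proteasome genes in budding yeast, lost a lower response, with 728 FPKM in the mutant in B medium and 1067 with cysteine, against 248 in the wild type in B medium and 1241 with cysteine. The wild type was low in RPN4 in B medium alone. ECM29, BLM10 (HPODL_02617) and rpn6 had differences of 1.77, 1.56 and 1.24. Of the gained higher responses, BUL1 (HPODL_02275) and BUL2, adaptors of the ubiquitin ligase Rsp5 in budding yeast, had responses of 3.89 in the mutant and 0.60 in the wild type for BUL1 and responses of 3.62 in the mutant and 0.50 in the wild type for BUL2. The vitamin B6 gene pyroA had 1694 FPKM in the mutant in B medium and 117 with cysteine, against 85.2 in the wild type in B medium and 49.8 with cysteine. Its neighbour SNO1 had a difference of 2.49.

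Other responses were similar in size in both strains. Copper and cytochrome oxidase genes were among the kept lower ones named by the size of the smaller of their responses. CTR1, the copper transporter, had 169 FPKM in the mutant in B medium and 16794 with cysteine, against 139 in the wild type in B medium and 12774 with cysteine. FRE7, a metal reductase, had 70.5 FPKM in the mutant in B medium and 4239 with cysteine, against 33.6 in the wild type in B medium and 2974 with cysteine. COX15, which makes heme for cytochrome oxidase, had 132 FPKM in the mutant in B medium and 1797 with cysteine, against 119 in the wild type in B medium and 1607 with cysteine. In each gene the strains differed by less than 2-fold in response, with differences of -0.11, 0.53 and -0.01, while the media differed by more than 3 on the log2 scale. SCO1, a copper carrier for cytochrome oxidase, had responses of -3.69 in the mutant and -3.98 in the wild type, and trxB, a thioredoxin reductase, had responses of -4.70 in the mutant and -4.84 in the wild type. All 8 cytochrome oxidase assembly genes compared kept a lower response, against 6.56% of all genes compared. Their median difference was -0.03 and lay between 0.08 and 0.33 under 4 other scalings. A further 15 genes matched to that list did not meet the limits on span and level. Among kept higher responses SOD2, the manganese superoxide dismutase of mitochondria, had 1529.9 FPKM in the mutant in B medium and 118 with cysteine, against 1439.5 in the wild type in B medium and 86.5 with cysteine. PPP1R3C, a regulatory subunit of protein phosphatase 1, had responses of 3.43 in the mutant and 4.005 in the wild type.

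Ribosomal protein genes kept their direction in the mutant with a smaller median size in the cytosol and a larger one in mitochondria. Of the 28 cytosolic ones compared, 25 kept a higher response, against 5.74% of all genes compared. A difference of at most -1 was found in 13 and of at least 1 in 0. The median response was 1.77 in the mutant and 2.84 in the wild type. RPL3 had 891 FPKM in the mutant in B medium and 100.2 with cysteine, against 1720.5 in the wild type in B medium and 138 with cysteine. RPS9A had the lowest difference of this list, -1.78. TPM scaling left 3 of at most -1. Only 28 of 79 cytosolic genes met the span and level limits, so most of this group was not compared. Of 69 mitochondrial ones 38 met these limits. A lower response was kept in 28 of them and gained in 10, against 6.56% and 4.14% of all genes compared. Their median response was -1.93 in the mutant and -1.18 in the wild type. MRPL1 had responses of -2.65 in the mutant and -1.11 in the wild type and RSM25 had responses of -1.75 in the mutant and -0.32 in the wild type. A difference of at most -1 was found in 9 of 38, near the 20.6% of all genes compared, and in 3 under TPM scaling, where the median responses were -2.002 in the mutant and -1.62 in the wild type. Glycolysis also kept lower responses, in 10 of 18 genes, against 6.56% of all genes compared. Its median difference was -0.28, and 0.11 under TPM scaling. TPI1 gained a lower response with a difference of -1.19, PCK1, a gluconeogenic enzyme, kept a higher one with 1.55, and the hexokinases hxkA and RAG5 lost higher ones with -2.81 and -1.80.

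The respiratory chain and ATP synthase genes compared were mostly in the class of lost higher responses. Only 20 of 63 matched genes met the span and level limits, so most of this group was not compared. Of 20 genes compared, 18 were at least 2-fold higher in B medium in the wild type, against 22.3% of all genes compared. In the mutant this held for 6, against 12.7%. A higher response was lost in 13, against 15.9%, and 8 had a difference of at most -1, against 20.6%. The median difference was -0.85. TPM scaling gave 11 lost higher responses, 5 of at most -1, 1 of at least 1 and a median of -0.45. CI-23kD, a subunit of complex I, had 142 FPKM in the mutant in B medium and 179 with cysteine, against 810.2 in the wild type in B medium and 123 with cysteine. The subunits nuo-40, ALI1 and nuo-49 had differences of -2.98, -2.58 and -2.28. The 4 lowest differences of the list were thus all in complex I, which brings electrons from NADH into the chain. In the tricarboxylic acid and glyoxylate cycles 7 of 20 genes had a difference of at most -1 and 3 of at least 1, with a median of -0.18, and TPM scaling turned this balance round with 5 and 6 and a median of 0.22. IDH2, a subunit of isocitrate dehydrogenase, lost a higher response with responses of 0.37 in the mutant and 2.72 in the wild type, and the probable succinyl-CoA ligase subunit B9J10.140 lost one with responses of 0.06 in the mutant and 2.08 in the wild type. IDP2, a peroxisomal isocitrate dehydrogenase, kept a higher one with a difference of -2.55.

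DNA replication genes gave another large group of lost responses. Of 45 compared, 25 had a difference of at most -1 and 1 of at least 1, against 20.6% and 11.6% of all genes compared, and 21 were lost higher responses, against 15.9%. The median response was -0.04 in the mutant and 1.06 in the wild type. PRI1, a DNA primase subunit, had 14.4 FPKM in the mutant in B medium and 23.7 with cysteine, against 100.2 in the wild type in B medium and 20.7 with cysteine. POL12, a subunit of DNA polymerase alpha, had 47.5 FPKM in the mutant in B medium and 26.2 with cysteine, against 82.5 in the wild type in B medium and 9.20 with cysteine. MCM7, a subunit of the replicative helicase, had 8.45 FPKM in the mutant in B medium and 3.80 with cysteine, against 89.7 in the wild type in B medium and 9.42 with cysteine. The wild type in B medium was the highest library for each. SLD5, another replication factor, gained a lower response with responses of -2.43 in the mutant and -0.27 in the wild type. TPM scaling left 17 of at most -1 and 13 lost higher responses, and median-of-ratios scaling left 15 lost. Only 2 histone genes met the span limit. HTA2, for histone H2A, lost a higher response with responses of 0.80 in the mutant and 1.48 in the wild type, and HHO1, for histone H1, kept one with responses of 1.64 in the mutant and 3.88 in the wild type. Growth and the share of dividing cells were not measured here.

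Cell wall and cytokinesis genes lost 15 higher responses of 39, against 15.9% of all genes compared, with 17 at a difference of at most -1, against 20.6%, 5 at least 1, against 11.6%, and a median of -0.88. TPM scaling left 9 lost higher responses and 13 of at most -1, with 7 of at least 1 and a median of -0.49. PIR1, a cell wall mannoprotein, had 1381 FPKM in the mutant in B medium and 832 with cysteine, against 2901 in the wild type in B medium and 427 with cysteine. GAS3, a probable glucanosyltransferase, lost its response with a difference of -1.89. The endochitinase CTS1 gained a lower response with responses of -1.12 in the mutant and 0.79 in the wild type, and the wall protein YL040_YEAST turned round with responses of -1.20 in the mutant and 1.33 in the wild type. In ergosterol synthesis 11 of 21 genes had a difference of at most -1 and 0 of at least 1, against 20.6% and 11.6% of all genes compared, with a median of -1.11. TPM scaling gave 7 of at most -1 and 2 of at least 1, with a median of -0.70. ERG25 (HPODL_02511), a sterol oxidase, had 531 FPKM in the mutant in B medium and 413 with cysteine, against 622 in the wild type in B medium and 52.7 with cysteine. ERG11, the sterol demethylase, lost a higher response with responses of -0.13 in the mutant and 2.24 in the wild type. ERG2 and the second ERG25 gene (HPODL_05236) gained lower responses with differences of -1.66 and -1.64, so that the list holds lost higher and gained lower responses.

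The remaining lists had median differences between -0.37 and 0.58, histones apart, against -0.16 over all genes. Autophagy and vacuolar proteases stood highest among them, with 7 of 28 genes at least 1 and 5 at most -1, and with a median of 0.96 under TPM scaling. Median differences were 0.30 for iron and copper uptake (19 genes), 0.07 for glutathione and thiol redox (12), -0.08 for chaperones (39), -0.18 for methanol metabolism and peroxisome (38), -0.25 for the pentose phosphate pathway (15), 0.58 for autophagy and vacuolar proteases (28), -0.27 for thiamine, pyridoxine and biotin (17), -0.13 for storage carbohydrate (12) and -0.37 for hexose and sugar transport (18). For histones the median was -1.46 over 2 genes, HTA2 with a difference of -0.68 and HHO1, for histone H1, with -2.23. Histone H1 is not a core histone. The sign of the medians for chaperones, methanol metabolism, pentose phosphate, thiamine, storage carbohydrate and sugar transport was positive under TPM scaling, that for chaperones under each of the 4 scalings and that for storage carbohydrate under 3 of them. Single members still stood out. Both genes named PRX1, for a mitochondrial peroxiredoxin, stood highest in wild-type cells in B medium, with 804 FPKM in the mutant in B medium and 872 with cysteine, against 18571 in the wild type in B medium and 857 with cysteine for HPODL_02878. The second PRX1 gene (HPODL_03023) had a difference of -4.62. TRR1, a thioredoxin reductase, lost a lower response with responses of -0.32 in the mutant and -2.51 in the wild type, and SIT1, a siderophore transporter, lost one with responses of 0.04 in the mutant and -2.72 in the wild type. AMO, a peroxisomal amine oxidase, lost a higher response with responses of 0.23 in the mutant and 3.29 in the wild type, RKI1 (HPODL_02541), a pentose phosphate isomerase, turned round with responses of -1.29 in the mutant and 1.35 in the wild type, and ATG25, an autophagy factor, lost a higher response with a difference of -2.63. The sugar transporter rco-3 kept a higher response with a difference of -4.10.

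**Figure D5:**
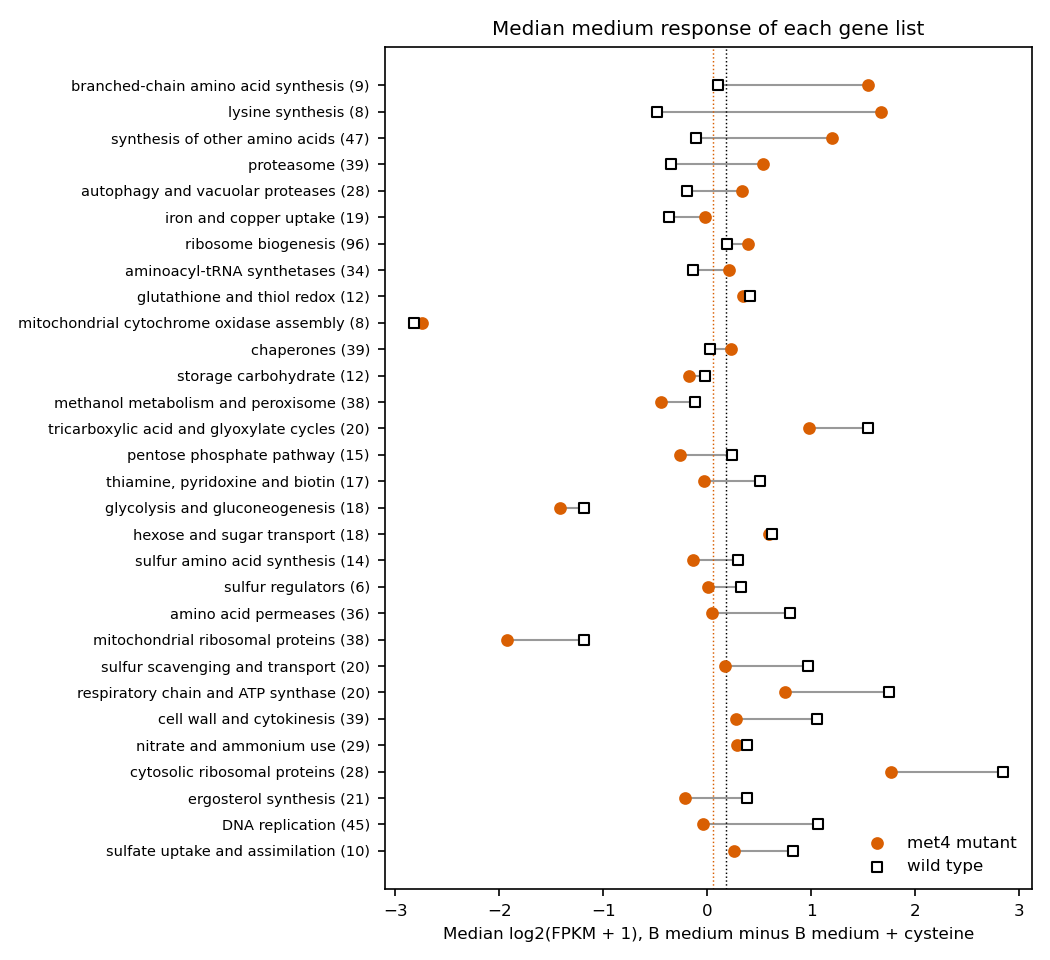
Median response (horizontal axis, log2(FPKM + 1) in B medium minus B medium with cysteine) of the genes compared in each of 30 lists with 5 or more such genes (vertical axis, number of genes in brackets), with filled circles for the met4 mutant and open squares for the wild type, ordered by the median difference of responses, with zip1 among the sulfur regulators. Dotted lines mark the medians of all genes, 0.06 in the mutant and 0.18 in the wild type; amino acid synthesis stands at the top with the mutant to the right of the wild type, and sulfate assimilation and DNA replication at the bottom with the mutant to the left.

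Of the 12 lowest differences of responses 10 belonged to genes with a described product. Besides the sulfonate dioxygenases and crnA these were HPODL_01980 (named Y3136_ARATH, clavaminate synthase-like) with -8.97, the flavin monooxygenase FMOGS-OX1 with -8.69, the transporters liz1 with -8.24 and SEO1 (HPODL_05071) with -7.72, and the putative aryl-alcohol dehydrogenase YI7E_SCHPO (HPODL_01099) with -7.54. The transporter YIQ6_YEAST (HPODL_03496), annotated as uncharacterized, was also among the 12 with -6.30. FMOGS-OX1 had 9.45 and 6.89 FPKM in the mutant without and with cysteine, against 547 FPKM for the wild type in B medium, and was listed at 0 when the wild type had cysteine, so its difference depends on the 1 FPKM added. HPODL_01980 had 5.32 FPKM in the mutant in B medium and 21.5 with cysteine, against 178 in the wild type in B medium and 0.273 with cysteine, and it turned round at low mutant levels. The further lost higher responses named by rule were the L-pipecolate oxidase fap1 (HPODL_04547) with -5.98 and dmoA, described as a dimethyl-sulfide monooxygenase, with -5.92.

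The 12 highest differences held 6 described genes. AIFM2, an oxidoreductase named apoptosis-inducing factor 2, had 382 FPKM in the mutant in B medium and 214 with cysteine, against 14.4 in the wild type in B medium and 207 with cysteine. GPR1, a glyoxylate pathway regulator, had 628 FPKM in the mutant in B medium and 7083 with cysteine, against 44.1 in the wild type in B medium and 8008 with cysteine. ALD5, an aldehyde dehydrogenase, had 63.4 FPKM in the mutant in B medium and 129 with cysteine, against 4.96 in the wild type in B medium and 192 with cysteine. In each the wild type in B medium was by far the lowest library. The others were YI7E_SCHPO (HPODL_00007) with a difference of 4.29, the arrestin-like ALY2 with 3.67 and JLP1 (HPODL_00875), given above. TAR1 (HPODL_05380), which is annotated on the strand opposite ribosomal DNA in budding yeast, lost a lower response with 483 FPKM in the mutant in B medium and 491 with cysteine, against 1331 in the wild type in B medium and 14923 with cysteine. The unnamed gene next to it (HPODL_05381) had 435 FPKM in the mutant in B medium and 297 with cysteine, against 1350 in the wild type in B medium and 16438.5 with cysteine. Whether reads of ribosomal RNA fall on these genes was not tested. The probable hydroxyoxoglutarate aldolase next to JLP1 (HPODL_00876) lost one with a difference of 3.37.

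Gained lower and turned round responses were the less frequent classes. TOS4 had 6.73 FPKM in the mutant in B medium and 60.6 with cysteine, against 111 in the wild type in B medium and 79.8 with cysteine. TDA4 had 30.9 FPKM in the mutant in B medium and 354 with cysteine, against 171 in the wild type in B medium and 225 with cysteine. Both were lower in the mutant in B medium than in the other 3 libraries. The ribonuclease RNY1 gained a lower response with responses of -1.63 in the mutant and 0.66 in the wild type. CRG1, a probable methyltransferase that uses S-adenosylmethionine, turned round, with 82.3 FPKM in the mutant in B medium and 504 with cysteine, against 1737 in the wild type in B medium and 639 with cysteine. HSP26, a small heat shock protein, turned round with 159 FPKM in the mutant in B medium and 499.6 with cysteine, against 133 in the wild type in B medium and 31.1 with cysteine. NIT3, a probable hydrolase, turned round with responses of -1.61 in the mutant and 1.65 in the wild type. In the opposite direction Rnaseh1 for ribonuclease H1, YO338_YEAST and ATR1, an efflux transporter, turned round with differences of 3.47, 3.17 and 2.72.

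Genes with a strongly lower response in the mutant lay next to each other at several places. Neighbours here are genes next to each other among those compared, so genes left out by the limits can lie between them. Runs of 3 or more such genes with a difference of at most -1 numbered 47 and held 177 genes. Runs of at least 1 numbered 22 and held 76 genes. Of all genes compared, 20.6% had a difference of at most -1 and 11.6% of at least 1, so some runs arise in any order. How many was not computed. The longest run held 9 genes on chromosome II (963408 to 977673). It lies in a stretch of 22 genes (chromosome II, 949375 to 990573), chosen after its values were seen, of which 20 had a difference of at most -1 and 0 of at least 1. The median level in this stretch was 53.8 and 27.8 FPKM in the mutant without and with cysteine, against 514 and 8.04 FPKM in the wild type without and with cysteine. It holds the sulfonate dioxygenases HPODL_05052 and HPODL_05061, liz1, FMOGS-OX1, dmoA and SEO1 (HPODL_05071). Of its members 12 were lost and 7 kept higher responses, against 15.9% and 5.74% of all genes compared. The median mutant levels thus lay above the median of the wild type with cysteine and below that of the wild type in B medium, which did not hold for each member. The cysteine synthase cysB (HPODL_05065), which lies in it, had 583 FPKM in the mutant in B medium and 1266 with cysteine, against 480.0 in the wild type in B medium and 1206 with cysteine. A shorter run of 5 genes on chromosome I (939241 to 949508) holds crnA and niiA, and 1 of 5 genes on chromosome VI (1482430 to 1490534) holds HPODL_01978 and HPODL_01980. Among runs of at least 1, the longest held 6 genes, and 1 of these (chromosome I, 289883 to 307358) holds RRP15, GCN4 and TAR1.

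The share of genes with a difference of at most -1 was between 17.8% on chromosome V and 23% on chromosome I, and that of at least 1 between 9.49% on chromosome IV and 13.5% on chromosome VII. It moved more with gene span and level. A difference of at most -1 was found in 23.7% of 1232 genes of 600 to under 1000 bases and in 13.7% of 519 genes of 2500 bases or more. A difference of at least 1 was found in 6.93% of 534 genes with a mean of 5 to under 20 FPKM and in 25.3% of 289 genes with 500 FPKM or more. The part of span and level in the results above was not tested beyond the removal of the span trend, after which 95.4% of genes stayed in their class.

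Many genes lay close to the limit, with 859 mutant and 864 wild-type responses within 0.25 of it. Just inside it MPP10 had a response of 1.001 in the mutant and STB5 one of 1.00014 in the wild type, and just outside it SUR4 had 0.998 in the mutant and APN2 0.99993 in the wild type. The authors' deposited table marks 57 genes as different between the strains with cysteine at a threshold of 0.05, of which 18 were compared here, and 13 in B medium, of which 2 were compared. Of the 18 marked with cysteine in the authors' deposited table, 10 had a difference of responses of at most -1 and 3 of at least 1, and both of those marked in B medium had at most -1. The marks were thus more numerous with cysteine than in B medium, opposite to the order found above with the limit of 2-fold. These marks come from the same libraries.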

How the data were processed

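Total RNA was extracted with hot phenol, per the labels' protocols, and the authors deposited 1 FPKM value per gene and library. TopHat, Cufflinks 2.1.1 and Cuffdiff are named without their roles, per the submitters' processing notes, while the genome build, annotation, strand setting and read number are not given in the sources used. Of 5448 rows, 5372 matched RefSeq's gene table by locus tag (assembly Hansenula_2). Of the rows, 897 spanned under 600 bases and 56 more had a mean under 5 FPKM, which left 4495, of them 3625 with a product description. Values were not rescaled. Responses and their difference were computed on log2(FPKM + 1), with Python 3.11.15, pandas 2.3.3 and numpy 2.4.6, and the classification was tested on simulated data. No test was made with 1 library per group, and depth and counting error are unknown. The 31 gene lists were matched by name and product, and wrong matches were removed by name. The members and lists were chosen with earlier results of these data known. Named by rule were the 12 highest and 12 lowest differences, 5 described genes per class and direction, all members of the 4 sulfur lists, the deleted locus, genes next to the limit and up to 4 members with the largest difference of each other list. Exceptions are marked as chosen after their values were seen. A gene that the rule names is not reported here. Alternatives were pseudocounts of 0.1 and 5 FPKM, other limits on FPKM, span and response, 4 scalings and removal of the span trend. Introns count in the span. Overlapping genes and genes of 1 name may share reads.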

Additional observations from a re-analysis of the deposited data

Results flagged for a closer look

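In 32 genes the mutant was 2-fold or more lower and the wild type 2-fold or more higher in B medium than with cysteine, and in 16 genes it was the other way round, with 1 library per group. These differences were not tested. Named among the 32 were HPODL_01980 (Y3136_ARATH) with a difference of responses of -8.97, CRG1 with -4.04, HSP26 with -3.71, cys2 with -3.30 and NIT3 with -3.26. Among the 16 were Rnaseh1 with 3.47, LYS21 (HPODL_02806) with 3.42, ARO3 (HPODL_00199) with 3.22, YO338_YEAST with 3.17 and ATR1 with 2.72. For HPODL_01980 the mutant values were 5.32 FPKM in B medium and 21.5 FPKM with cysteine.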

How the results depend on the processing

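No paired analysis was possible because each group holds 1 library and no result comes from a test, and for the same reason no library could be left out. Where a value below moved and no construction is named, the cause was not tested. Over all alternatives run, no named gene or list median with a size of 1 or more changed sign. Of the named genes' values under these settings 2174 stayed within a fold of 1.5 of the reported difference of responses and 60 moved further. TPM scaling gave 402 lost higher, 514 lost lower, 158 kept higher, 15 and 41 turned round (higher and lower in the wild type), and 863 and 527 differences of at least 1 and at most -1, with 79.8% of genes in the same class; by construction it also lowers the values against the pseudocount, most in the wild type. Of all differences of 1 or more in size, 35.9% were positive as reported, 46% with median-of-ratios, 43.3% with upper-quartile, 62.1% with TPM scaling and 48.1% when scaled to genes of at least 600 bases. The last setting left 21 genes that turned round and were higher in the wild type, and a pseudocount of 5 FPKM left 19. A span of at least 1200 bases, which removes genes by construction, gave 423 and 151 lost, 134 and 140 kept, 94 gained lower, 9 and 8 turned round, 1482 under the limit in both, and 325 and 486 differences of at least 1 and at most -1. A response limit at a fold of 1.5 gave 617 and 500 kept, 312 gained lower, 125 and 79 turned round, 1287 in neither, and 957 and 1502 differences past it. A limit of 2 on the log2 scale gave 324 and 105 lost, 40 and 53 kept, 86 and 58 gained, 0 and 0 turned round, 3829 in neither, and 143 and 257 differences past it. For JLP1 (HPODL_00875) the difference was 6.28 and 1.76 with pseudocounts of 0.1 and 5 FPKM.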

Other observations

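The genes of the cell division cycle named here were outside the lists and were picked after their values were seen. How many other genes of the cycle went the same way or the opposite way was not counted. PCL1 and PCL2, cyclins of the kinase Pho85 in budding yeast, had a kept and a lost higher response. PCL1 had responses of 2.31 in the mutant and 4.67 in the wild type, and PCL2 had responses of 0.69 in the mutant and 4.60 in the wild type. SWI4, a factor for genes of the start of the cycle, turned round with responses of -1.19 in the mutant and 1.34 in the wild type. The kinetochore genes ask1 and NSL1 turned round as well, with differences of responses of -2.78 for ask1 and -3.23 for NSL1. OPI3, a methyltransferase of phosphatidylcholine synthesis that uses S-adenosylmethionine, lost a higher response, with 410.0 FPKM in the mutant in B medium and 364 with cysteine, against 5889 in the wild type in B medium and 189 with cysteine.

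A run of 5 neighbouring genes on chromosome II (43549 to 51192) and another of 5 on chromosome VI (1482430 to 1490534), both with differences of at most -1, each hold a gene named YQD3_SCHPO and a gene named Y3136_ARATH. FPKM do not show whether genes of 1 name share reads.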
